A study of Mus musculus with 2 samples.

Results

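Noncanonical Wnt signalling was followed through 10 genes: the ligands Wnt5a and Wnt11, the receptors Ror1, Ror2 and Ryk, the planar polarity genes Vangl1, Vangl2, Prickle1 and Prickle2, and the effector Daam1. They were chosen by name, with earlier results of these data known, as every probe set whose only platform gene symbol is among these. The members account for 10 of the 18193 genes on the array and for 25 of its 45101 probe sets. Uterine stromal cells of pregnant C57BL/6 mice were measured on day 4 of pregnancy, the day of the mating plug being day 1. The Msx1Msx2-null array held cells from mice in which floxed Msx1 and Msx2, a pair of homeobox transcription factor genes, had been ablated with PRcre. The floxed control array held cells from mice carrying the floxed alleles; the sources used here do not say whether these mice carried Cre, nor the age of any mouse. The PRcre driver is expressed wherever the progesterone receptor gene is active, so the ablation reaches uterine epithelium and muscle as well as stroma. Uterine pieces had been freed of epithelial clumps with dispase and pancreatin, and the stromal cells were then released with collagenase. Each genotype was 1 pool of RNA on 1 array. The design text counts 5 mice per genotype and the extraction protocol 4.

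Wnt5a and Wnt11 are secreted glycoproteins that act largely without beta-catenin. Ror1, Ror2 and Ryk are single-pass receptors for Wnt5a, and Vangl and Prickle proteins form a membrane complex that orients cells within the plane of a tissue, while Daam1 is a formin that links Dishevelled to the actin cytoskeleton. In the mouse uterus, Wnt5a signalling through Ror receptors and planar polarity proteins is known to direct the folding of the luminal epithelium into crypts that receive blastocysts.

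On their brightest probe sets the ligands, Ror2 and Prickle2 were higher in the Msx1Msx2-null array, and the other members were close in both arrays. The probe sets of Ryk disagreed in direction, and 1 Vangl2 probe set that was not its brightest had a log2 ratio of 0.78. With each gene read on its brightest probe set, 1 of 10 members, Wnt11, passed 2-fold upwards and 0 passed it downwards. Over all genes 3.39% were past 2-fold in either direction and 1.59% were at least 2-fold higher. At 1.5-fold, 4 of 10 members were higher (Wnt11, Prickle2, Wnt5a and Ror2) and 0 lower, against a background of 6.79% of genes higher and 6.92% lower. Because the members were chosen with earlier results of these data known, their share is not independent of these arrays. The median log2 ratio, Msx1Msx2-null minus floxed control, was 0.24 over the members and 0.02 over the 11833 genes used. Ratios were above 0 in 9 of 10 members and in 52.3% of all genes used. Of the 9, Ryk, Vangl1, Prickle1, Ror1 and Vangl2 had ratios from 0.05 to 0.25. These were smaller than the SD of a single probe-set ratio, 0.27, described below. There was no replicate array, so no difference here has been set against the spread between animals, and no p-value is given. The pools cannot separate more RNA per cell from more cells of a type.

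The values are MAS5 signals, linear intensities in arbitrary units, and a signal compares the same probe set between the arrays but not different probe sets or genes. A floor was put at the median signal of all non-control probe sets, 30.1 in the Msx1Msx2-null array and 31.0 in the floxed control array. Signals under it were raised to it before a ratio was taken, and a ratio made in this way is a bound. A gene or probe set counted as used if it exceeded the floor in at least 1 array. Of the 25 member probe sets, 18 were above the floor in both arrays, 3 in 1 array and 4 in neither, and all 10 genes had at least 1 probe set above the floor in both. As a scale of probe noise, the log2 ratio of a single probe set had an SD of 0.27, taken from the 2 brightest probe sets of each of 4690 genes. The difference between 2 such ratios then has an SD of 0.39. This scale leaves out everything that the probe sets of a gene share, among it the difference between pools and between hybridizations.

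**Figure D1:**
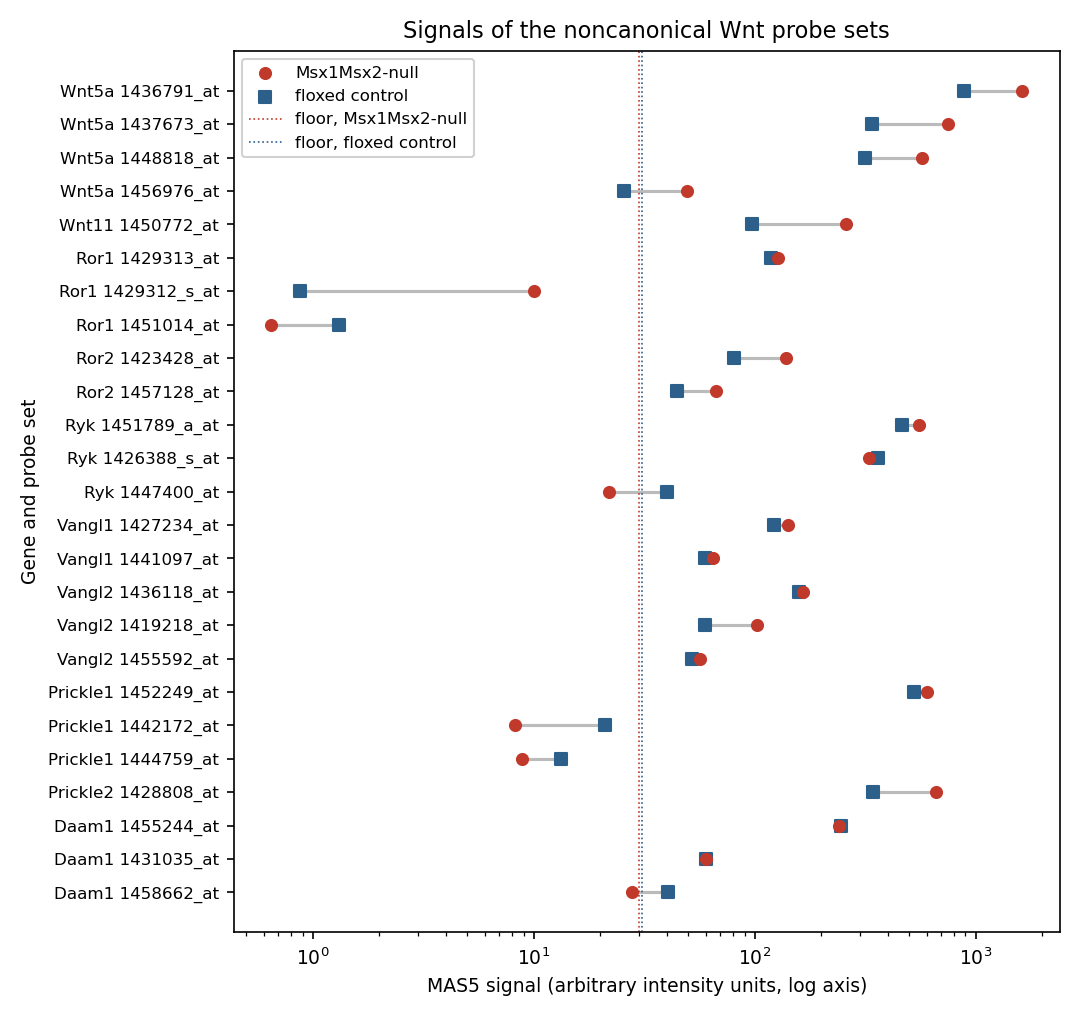
MAS5 signal (log axis, arbitrary intensity units) of each of the 25 member probe sets in the Msx1Msx2-null array (circles) and the floxed control array (squares), with the floor of each array as a dotted line. The 4 Wnt5a probe sets and the single Wnt11 probe set lie to the right in the Msx1Msx2-null array, while the 4 probe sets of Ror1 and Prickle1 below both floors have no usable ratio.

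Both targeted genes were lower in the Msx1Msx2-null array on the probe sets that could be used. Msx1 had signals of 23.0 in the Msx1Msx2-null array and 1581 in the floxed control array on 1448601_s_at, which makes it at least 52.6-fold lower. Msx2 had signals of 14.5 in the Msx1Msx2-null array and 63.7 in the floxed control array on 1449559_at, at least 2.12-fold lower, and was thus dim in control cells. Its other probe set, 1438351_at, read 2.85 in the Msx1Msx2-null array and 15.9 in the floxed control array, under both floors, and gave no usable ratio. The sources used here do not place these probe sets inside or outside the deleted parts. Pgr, the gene that drives PRcre, had signals of 2663 in the Msx1Msx2-null array and 1891 in the floxed control array. The 3'/5' signal ratio of Gapdh, which increases as RNA is degraded, was 1.28 in the Msx1Msx2-null array and 0.967 in the floxed control array, and that of Actb was 2.33 in the Msx1Msx2-null array and 1.80 in the floxed control array. The array with the higher ligand signals was therefore also the one with the higher 3'/5' ratios, whose part in the member results was not tested.

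Wnt5a, the main noncanonical ligand, was higher on each of the 3 of its 4 probe sets that exceeded the floor in both arrays. Probe set 1436791_at read 1625 in the Msx1Msx2-null array and 887 in the floxed control array, a log2 ratio of 0.87 (1.83-fold). Probe set 1437673_at read 749 in the Msx1Msx2-null array and 341 in the floxed control array, a log2 ratio of 1.14 (2.20-fold). Probe set 1448818_at read 572 in the Msx1Msx2-null array and 316 in the floxed control array, a log2 ratio of 0.86 (1.81-fold). These 3 readings differed among themselves by at most 0.28, less than the SD of 0.39 between the ratios of probe sets of a gene. The dim probe set 1456976_at read 49.3 in the Msx1Msx2-null array and 25.5, under the floor, in the floxed control array, at least 1.59-fold higher. It was usable only through the Msx1Msx2-null array, so its floored ratio could only come out higher. The brightest probe set alone would leave Wnt5a just short of 2-fold, and 1 of the 4 probe sets was past it. By its brightest probe set Wnt5a ranked 288 from the top of 11833 genes, with 2.43% of genes at least as high.

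Wnt11, a ligand with roles in cell movement and in kidney and heart development, was measured on 1 probe set. Probe set 1450772_at read 260 in the Msx1Msx2-null array and 96.8 in the floxed control array, a log2 ratio of 1.42 (2.68-fold higher). This was the highest ratio among the members, at rank 60 of 11833 genes, with 0.507% of genes at least as high. Wnt11 lay in the middle tertile of signal, in which 1.19% of genes were at least 2-fold higher. With a single probe set there was no second reading on the array, so the probe set's own error is not checked by another. On the brightest probe set of each, Wnt11 exceeded Wnt5a by 0.55 on the log2 ratio scale, 1 such difference on 1 pair of arrays. The gap was smaller against Wnt5a probe set 1437673_at, whose log2 ratio was 1.14.

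The Wnt11 start region is shown because Wnt11 had the highest ratio of the members and a window with a Tcf/Lef core. Of the 8 members with windows, Wnt11 and Prickle2 held such a core, and the windows shown were picked for that match. Promoter windows of 300 bases (250 before a start site and 50 after it, from RefSeq on GRCm38.p6) matched 8 of the 10 genes, all but Wnt5a and Vangl1, in 14 windows. They were searched on both strands for 4 sets of letters: TAATTG, the core bound by Msx homeodomains; CTTTGAA and CTTTGAT, cores of Tcf/Lef factors that share their first letters and exclude each other at a site; and TGTTCT, a progesterone receptor half-site. TAATTG was in 0 of the 14 windows and in 8.0% of all 32851 windows, and CTTTGAA was in 0 of 14 and in 5.14%. CTTTGAT was in 2 of 14 windows and in 3.73% of all, and TGTTCT was in 1 of 14, a Daam1 window, and in 18.97%. A match describes letters and is not a binding site, and no match says only that the letters are not in these windows. In the first of the 2 Wnt11 windows, chr7:98834862-98835161 on the + strand, the match is the reverse complement ATCAAAG, shown in capitals, which begins 51 bases before the start site.
Wnt11: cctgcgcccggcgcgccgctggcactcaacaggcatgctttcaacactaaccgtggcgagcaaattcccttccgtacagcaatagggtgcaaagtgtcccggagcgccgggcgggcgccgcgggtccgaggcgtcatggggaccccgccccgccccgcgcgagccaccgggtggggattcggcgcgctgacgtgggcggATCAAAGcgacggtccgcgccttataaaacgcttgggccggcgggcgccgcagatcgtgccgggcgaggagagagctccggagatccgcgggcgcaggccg

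Among the receptors, Ror2 was higher on both of its probe sets, Ror1 was close in both arrays and Ryk was mixed. Ror2, the tyrosine kinase-like receptor most often tied to Wnt5a, read 139 in the Msx1Msx2-null array and 80.8 in the floxed control array on probe set 1423428_at, a log2 ratio of 0.79 (1.72-fold). Its other probe set, 1457128_at, read 66.6 in the Msx1Msx2-null array and 44.7 in the floxed control array, a log2 ratio of 0.58 (1.49-fold). Both Ror2 probe sets thus pointed the same way, but Ror2 lay in the dimmest tertile, where 10.3% of genes were at least 1.5-fold higher. Ror1, its paralogue, read 127 in the Msx1Msx2-null array and 119 in the floxed control array on 1429313_at, a log2 ratio of 0.10. The other 2 Ror1 probe sets were under the floor in both arrays, 1429312_s_at at 10.0 in the Msx1Msx2-null array and 0.876 in the floxed control array, and 1451014_at at 0.649 in the Msx1Msx2-null array and 1.32 in the floxed control array. Their measured ratios point in opposite directions and were not used. On the brightest probe set of each, the log2 ratio of Ror2 exceeded that of Ror1 by 0.69, and on the other Ror2 probe set by 0.48.

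Ryk, an atypical receptor with an inactive kinase domain, had probe sets that disagreed in direction. Probe set 1451789_a_at read 553 in the Msx1Msx2-null array and 464 in the floxed control array, a log2 ratio of 0.25. Probe set 1426388_s_at read 328 in the Msx1Msx2-null array and 360 in the floxed control array, a log2 ratio of -0.13, and its name ending is given to probe sets that match several transcripts. The dim 1447400_at read 21.9, under the floor, in the Msx1Msx2-null array and 40.0 in the floxed control array, a bound of -0.41. The gap of 0.39 between the 2 bright probe sets equals the SD of such differences, so no direction is given for Ryk. With the median over its probe sets the Ryk value was -0.13.

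In the Prickle pair, Prickle2 was higher and Prickle1 was close in both arrays. Prickle proteins are cytoplasmic partners of Vangl that carry LIM and PET domains. Prickle2 read 662 in the Msx1Msx2-null array and 345 in the floxed control array on its single probe set, 1428808_at, a log2 ratio of 0.94 (1.92-fold). It stood at rank 230 of 11833 genes, in the brightest tertile of signal, where 3.98% of genes were at least 1.5-fold higher. Prickle1 read 604 in the Msx1Msx2-null array and 526 in the floxed control array on 1452249_at, a log2 ratio of 0.20. Its other 2 probe sets were under the floor in both arrays, 1442172_at at 8.23 in the Msx1Msx2-null array and 21.1 in the floxed control array, and 1444759_at at 8.84 in the Msx1Msx2-null array and 13.3 in the floxed control array. Prickle2 exceeded Prickle1 by 0.74 on the log2 ratio scale, and like Wnt11 it had no other probe set to compare.

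Prickle2 has 4 windows in the RefSeq table, the most of any member, and the sequence below is the 1 with a match. In chr6:92567317-92567616 on the - strand, the letters CTTTGAT, in capitals, begin 164 bases before that start site. The GC content of this window was 46.3%, below that of the Wnt11 window shown above, 71.3%, and the median of all windows was 52.7%. The single Ror2 window held none of the searched letters and had a GC content of 74.7%. Which start sites were used in these cells was not measured.
Prickle2: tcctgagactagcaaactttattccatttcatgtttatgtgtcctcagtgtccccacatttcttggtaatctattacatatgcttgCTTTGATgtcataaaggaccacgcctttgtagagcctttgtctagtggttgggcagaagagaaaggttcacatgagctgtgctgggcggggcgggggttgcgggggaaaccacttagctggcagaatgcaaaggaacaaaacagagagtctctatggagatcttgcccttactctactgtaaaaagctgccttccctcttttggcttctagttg

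The Vangl pair, four-pass membrane proteins at the core of planar polarity, was close in both arrays on most probe sets. Vangl1 read 142 in the Msx1Msx2-null array and 122 in the floxed control array on 1427234_at, a log2 ratio of 0.22, and 1441097_at gave 0.12 with signals of 64.9 in the Msx1Msx2-null array and 59.5 in the floxed control array. Vangl2 read 165 in the Msx1Msx2-null array and 159 in the floxed control array on 1436118_at, a log2 ratio of 0.05. A second Vangl2 probe set, 1455592_at, gave 0.12, with signals of 56.7 in the Msx1Msx2-null array and 52.1 in the floxed control array. The remaining probe set, 1419218_at, stood apart at 103 in the Msx1Msx2-null array and 59.6 in the floxed control array, a log2 ratio of 0.78. These 3 probe sets, all above the floor in both arrays, had a range of 0.73. The SD of 0.39 is for a difference between 2 probe sets, and a range over 3 tends to be wider. The higher reading of 1419218_at was not shared by the other 2 probe sets of the gene, and which reading is right was not tested.

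Daam1, the formin downstream of Dishevelled, had nearly equal signals in both arrays on its 2 brighter probe sets. Probe set 1455244_at read 241 in the Msx1Msx2-null array and 247 in the floxed control array, a log2 ratio of -0.04. Probe set 1431035_at read 60.1 in the Msx1Msx2-null array and 60.3 in the floxed control array, a log2 ratio of -0.01. The dim 1458662_at read 27.8, under the floor, in the Msx1Msx2-null array and 40.5 in the floxed control array, a bound of -0.43. Daam1 was the 1 member with a negative ratio on its brightest probe set, and this sign turned to a log2 ratio of 0.01 when the arrays were centred on their medians.

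**Figure D2:**
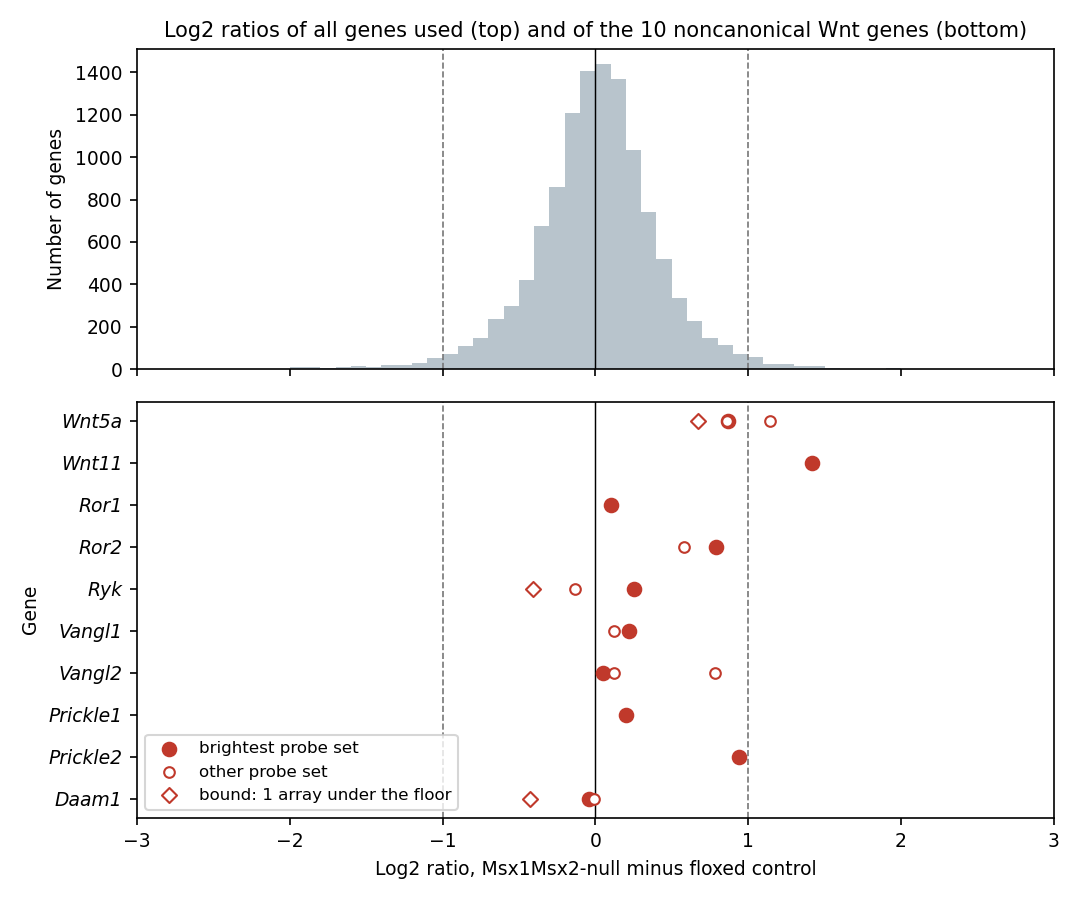
Top, number of genes by log2 ratio (Msx1Msx2-null minus floxed control) over the 11833 genes used, 8 of which lie beyond the plotted range; bottom, the 21 usable member probe sets by gene, with filled circles for the brightest probe set, open circles for the others and diamonds for bounds. Dashed lines mark 2-fold; the probe sets past it are those of Wnt11 at 1.42 and of Wnt5a at 1.14, and the probe sets of Ryk and Vangl2 are spread out.

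Counted over probe sets, 16 of the 21 usable ones were above 0 and 5 were below, where 48.8% of all usable probe sets were above 0. Past 2-fold, 2 of these 21 were higher and 0 lower, against a background of 1.31% of probe sets higher and 1.84% lower. At 1.5-fold, 8 were higher and 0 lower, against 6.01% and 7.87% of all usable probe sets. The 1 of these with a bound, 1456976_at of Wnt5a, was usable only through the Msx1Msx2-null array, where it is high, and so could only come out higher; the bounds of Ryk and Daam1 could likewise only come out lower. Among the 18 member probe sets that exceeded the floor in each array, 15 were above 0 and 3 below, where 49.3% of all such probe sets were above 0. Of these 18, 2 passed 2-fold upwards and 0 downwards, against 1.10% and 1.60% of all 18699 such probe sets. At 1.5-fold, 7 of the 18 were higher and 0 lower, against 5.59% and 7.35%. The 7 comprised 3 of Wnt5a and 1 each of Wnt11, Ror2, Prickle2 and Vangl2. Probe sets of a gene read the same RNA pools, so the 3 of Wnt5a are not 3 observations of the genotype.

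The wider noncanonical pathway was divided evenly around 0. Of 91 further pathway genes used, 44 had ratios above 0 and 47 below, with a median log2 ratio of -0.02, against 0.02 over all genes used. At 2-fold, 0 were higher and 2 lower, Dact2 and Siah2, together 2.20%, against the background of 3.39% in either direction. Past 1.5-fold there were 4 higher and 9 lower of the 91, where the background was 6.79% of genes higher and 6.92% lower. Among the 9, Nos1ap was usable only through the floxed control array and so could only come out lower.

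The other Wnt ligands were dim and divided in direction. Of 17 genes, 11 stayed below both floors, 3 of the other 6 had ratios above 0 and 3 below, and 0 were past 1.5-fold. Wnt4, a ligand of decidualization, read 48.2 in the Msx1Msx2-null array and 70.1 in the floxed control array, a log2 ratio of -0.54. Wnt16 read 79.5 in the Msx1Msx2-null array and 58.2 in the floxed control array, a log2 ratio of 0.45. Wnt7b read 45.7 in the Msx1Msx2-null array and 34.1 in the floxed control array, a log2 ratio of 0.42. Of 7 genes of Wnt secretion 3 were above 0 and 4 below, with a median of -0.10. Porcn, the acyltransferase that lipidates Wnt proteins, had 0.16. Wls, which carries them to the cell surface, had -0.16, with its other probe sets at -0.22 and 0.03. The cargo receptor gene Tmed5 had -0.14 on its brightest probe set. The other 2 Tmed5 probe sets, neither of them a bound, had -0.65 and -0.87.

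Frizzled receptors, which bind Wnt ligands together with Ror proteins, went in different directions. Of 8 used, 3 were above 0 and 5 below, with a median of -0.35, and 0 passed 2-fold on the brightest probe set. At 1.5-fold 2 of the 8, Fzd3 and Fzd2, were higher and 2, Fzd7 and Fzd5, were lower. Fzd3, a receptor of planar polarity, read 251 in the Msx1Msx2-null array and 145 in the floxed control array, a log2 ratio of 0.79, and 2 more probe sets measured in both arrays gave 0.43 and 0.33. The fourth usable Fzd3 probe set was under the floor in the floxed control array and gave a bound of 0.30. Fzd2 read 730 in the Msx1Msx2-null array and 474 in the floxed control array, a log2 ratio of 0.62. Its other 2 probe sets gave 0.48 and 1.10, the second past 2-fold with signals of 742 in the Msx1Msx2-null array and 347 in the floxed control array. Fzd7 read 118 in the Msx1Msx2-null array and 198 in the floxed control array, and Fzd5 read 79.9 in the Msx1Msx2-null array and 134 in the floxed control array, each with a log2 ratio of -0.75. Among 7 cell surface partners 4 were above 0, with a median of 0.26. Ptk7, a pseudokinase co-receptor of planar polarity, had a log2 ratio of 0.59, with signals of 482 in the Msx1Msx2-null array and 320 in the floxed control array. The heparan sulfate proteoglycan genes Sdc4 and Gpc3 had log2 ratios of 0.60 and -0.59, opposite in sign.

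**Figure D3:**
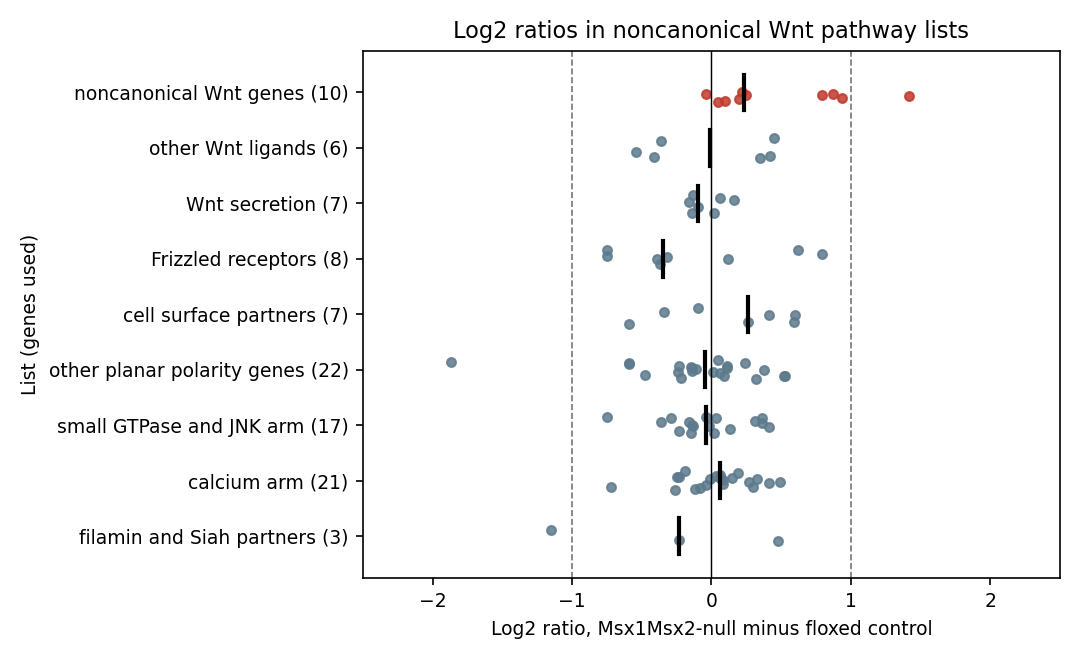
Log2 ratio (Msx1Msx2-null minus floxed control) of each gene used, 1 point per gene, for the 10 members in the top row and for the 8 pathway lists below, with the number of genes used in brackets and the median as a black bar. Dashed lines mark 2-fold; the points past the lower line are Dact2 at -1.87 and Siah2 at -1.15, and the member median of 0.24 lies above the all-gene median of 0.02.

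Downstream components fell on both sides of 0, and in each list the only genes past 1.5-fold were lower. Over all genes 6.79% were at least 1.5-fold higher and 6.92% lower. Of 22 other planar polarity genes 11 were above 0 and 11 below, with a median of -0.05. At 1.5-fold 0 of them were higher and 3 lower. Dact2, a Dishevelled-binding protein, was the 1 past 2-fold, reading 136 in the Msx1Msx2-null array and 497 in the floxed control array, 3.65-fold lower. Its other usable probe set was under the floor in the Msx1Msx2-null array and gave a bound of -2.13. The polarity cadherin gene Celsr2 had a log2 ratio of -0.59, and Nos1ap, a Scrib partner, had a bound of -0.59. In the small GTPase and JNK arm 7 of 17 genes were above 0, with a median of -0.04, and at 1.5-fold 0 were higher and 1 lower. There the transcription factor gene Jun read 2730 in the Msx1Msx2-null array and 4577 in the floxed control array, a log2 ratio of -0.75. Jun is also an early response gene that tissue digestion can induce, and the part of digestion was not tested. The kinase genes Map3k4 and Map3k1 had 0.41 and -0.36, the second with a bound of 0.32 in the opposite direction on another probe set. The other Map3k4 probe sets gave 0.36, 0.63 and -0.09.

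In the calcium arm 12 of 21 genes were above 0, with a median of 0.06, and at 1.5-fold 0 were higher and 1 lower. The phospholipase genes Plcb4 and Plcb3 had log2 ratios of -0.72 and 0.41, and Nfatc4, a calcineurin-dependent transcription factor, had 0.49, with another probe set at 0.08 and a bound of -0.18 on a further one. The last list held 3 usable genes, with 0 at least 1.5-fold higher and 1 lower. Siah2, a ubiquitin ligase, read 41.8 in the Msx1Msx2-null array and 92.5 in the floxed control array, 2.21-fold lower, and its other probe set gave -0.74. The actin crosslinker gene Flna, whose protein binds Ror2, had 0.48, and Siah1a had -0.23 with other probe sets at 0.15 and 0.08.

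Markers of several cell types differed between the arrays beside the members. The 12 stromal fibroblast markers were all above the floor, with a median log2 ratio of 0.10 and summed signals of 61816 in the Msx1Msx2-null array and 59500 in the floxed control array, so the arrays carry the markers of the labelled cell type. Summed signals, here and below, are weighted towards the brightest genes of a list and do not measure an amount of cells. Ratios were above 0 in 8 of the 12 and below 0 in 4, with 0 past 2-fold; at 1.5-fold 2 were higher and 1 lower. Col3a1, a fibrillar collagen gene, read 15211 in the Msx1Msx2-null array and 14643 in the floxed control array. The homeobox gene Hoxa11 read 1333 in the Msx1Msx2-null array and 767 in the floxed control array, a log2 ratio of 0.80, which is about that of Ror2. Hand2, a transcription factor gene of the progesterone response, read 1230 in the Msx1Msx2-null array and 795 in the floxed control array, a log2 ratio of 0.63, and its dim other probe set gave -0.01. Nt5e read 294 in the Msx1Msx2-null array and 444 in the floxed control array, a log2 ratio of -0.60, with a bound of -0.14 on another probe set. Epithelial markers were present in both arrays: all 11 measured were above the floor, with a median of -0.10 and summed signals of 9628 in the Msx1Msx2-null array and 11141 in the floxed control array. Among them Krt19 was 2.05-fold higher and Krt18 2.09-fold lower, and Cldn3 had a log2 ratio of -0.13, with its other 3 probe sets at -0.03, 0.04 and 0.31. All 6 gland markers had ratios below 0, 4 of them past 2-fold, with summed signals of 2052 in the Msx1Msx2-null array and 8863 in the floxed control array. The secreted gland products Spink1 and Prss29 were 54.6-fold and at least 18.2-fold lower, and the gland transcription factor gene Foxa2 was 4.54-fold lower, while Sox17 had -0.46.

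Most vascular and macrophage markers had ratios below 0 and most natural killer markers above 0, but few passed 2-fold. All 9 endothelial markers had negative ratios, with a median of -0.69, Emcn at -0.89 and 0 past 2-fold, and summed signals were 2453 in the Msx1Msx2-null array and 3745 in the floxed control array. Pericyte markers had a median of -0.51, with 6 of 7 below 0 and 0 past 2-fold, Cspg4 at 0.10 (its other probe set at 0.59), Rgs5 at -0.51 (its other 3 probe sets at -0.75, -0.82 and -1.15) and summed signals of 7629 in the Msx1Msx2-null array and 10693 in the floxed control array. Macrophage markers had 9 of 9 below 0 and a median of -0.50, with summed signals of 4882 in the Msx1Msx2-null array and 7136 in the floxed control array. Of the 9, 2 passed 2-fold: Fcgr3 and Mrc1 were 2.12-fold and 2.03-fold lower, and C1qb had -0.72. Of 8 smooth muscle markers 7 were above 0, with a median of 0.37, Acta2 at 0.41 and summed signals of 12938 in the Msx1Msx2-null array and 10023 in the floxed control array. Of 6 usable natural killer and T cell markers 5 were above 0, with a median of 0.62, Gzmb at 0.87 and 0 past 2-fold. The 9 genes of this list on the array had summed signals of 3002 in the Msx1Msx2-null array and 1749 in the floxed control array. The usable marker below 0 was the T cell gene Cd3g, at 87.8 in the Msx1Msx2-null array and 95.2 in the floxed control array, while Cd3e, Cd4 and Cd8a stayed below both floors. The median of this list moved to 0.30 on the log2(signal + 32) scale. Of 5 mesothelial markers 2 were usable, Wt1 at 0.75 and Upk1b at 0.00, and the list's summed signals were 592 in the Msx1Msx2-null array and 369 in the floxed control array. Wt1 alone made up 491 of the sum in the Msx1Msx2-null array and 292 in the floxed control array. No marker was listed at 0 in either array, but neither was any other probe set. The lowest signals were 0.0476 in the Msx1Msx2-null array and 0.0541 in the floxed control array, so this does not show that a marker was detected. Whether the mix of cells has a part in the higher signals of Wnt5a, Wnt11, Ror2 and Prickle2 was not tested.

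**Figure D4:**
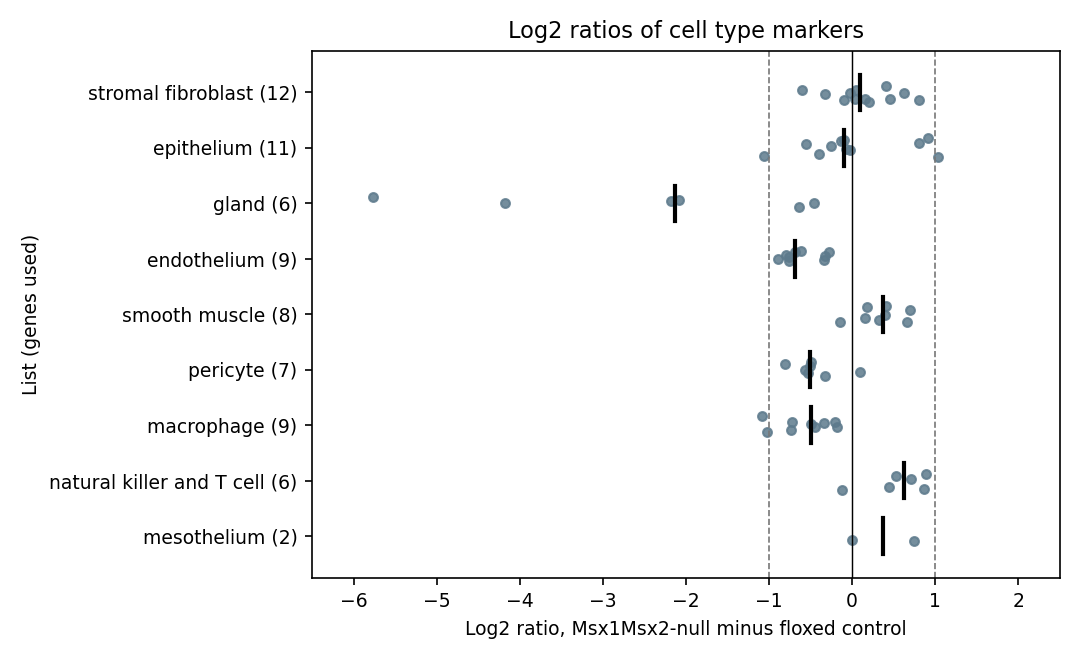
Log2 ratio (Msx1Msx2-null minus floxed control) of each usable marker, 1 point per gene, for 9 cell type lists, with the number of genes used in brackets and the median as a black bar; dashed lines mark 2-fold. Stromal fibroblast markers centre on 0.10, gland markers have a median of -2.13, and natural killer and T cell markers a median of 0.62.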

How the data were processed

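RNA pooled by genotype was labelled and hybridized to 1 Affymetrix 3' expression array per genotype, per the labels' protocols. Per the submitters' processing notes, the authors computed the deposited signal intensity values by MAS5, using Affymetrix Expression Console 1. After trimming 2% of probe sets at each end, either deposited column averaged 150. The sources used here give no background setting and no detection call.

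Of 45101 probe sets, 64 were controls, 34945 had 1 gene symbol, 932 several and 9160 none. Signals were turned into log2 values without rescaling (Python 3.11.15, pandas 2.3.3). A gene was read on its brightest probe set by mean log2 signal, was used when at least 1 signal was above the floor (the 50th percentile of each array), and was called at 2-fold. Of 18193 genes, 11833 were used. Depth is not defined for arrays, and 1 array per genotype limits the precision; no test was possible. The ratio and call steps were tested on simulated data with inserted changes larger than any member ratio. Variation between pools or hybridizations was not simulated, so this does not check calls of the size seen in the members.

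The members and lists were chosen with earlier results of these data known. The named genes are all members, the 3 largest ratios and any 2-fold call of each pathway list, and of each marker list up to 3 calls and the brightest gene; Upk1b, Cd3g, Cd3e, Cd4, Cd8a, Fzd2, Hoxa11, Hand2, Nt5e and Cspg4 were named after their values were seen. Of 121 further pathway genes, 113 were on the array. Alternatives covered the floor, the scaling, an offset, the choice of probe set and the fold.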

Additional observations from a re-analysis of the deposited data

How the results depend on the processing

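Wnt11 alone among the member genes was past 2-fold under all 8 alternatives of floor, scaling, offset and probe set, with log2 ratios from 1.18 to 1.47, and 0 members were 2-fold lower. Wnt5a ranged from 0.85 to 0.92, Ror2 from 0.60 to 0.83 and Prickle2 from 0.88 to 0.99, and the member median from 0.19 to 0.28. Wnt11 and Prickle2 have 1 probe set each, above every floor tried. The floor and probe set alternatives therefore could not change their ratios, which stayed at 1.42 and 0.94. For these genes only the scalings and the offset were alternatives that could move the value. Ryk turned to -0.13 with the median over its probe sets, and Daam1 to 0.01 with arrays centred on their medians; its distance from 0 was small throughout. With a 1.5-fold threshold 4 member genes and 8 member probe sets were higher in place of 1 and 2, 1 of the 8 probe sets as a bound. Member probe sets 2-fold lower numbered 0 as reported, 1 with the floor at the 25th percentile and 2 with no floor.

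For all genes, 188 were higher and 213 lower as reported, 551 and 589 with the floor at the 25th percentile, 97 and 123 at the 65th, 1797 and 1772 with no floor, 100 and 130 with log2(signal + 32), and 804 and 819 at 1.5-fold. Further pathway genes numbered 0 higher and 2 lower as reported, 2 and 4 with the floor at the 25th percentile, 6 and 8 with no floor, and 4 and 9 at 1.5-fold. They numbered 1 lower with the floor at the 65th percentile, 1 with the offset and 1 with the median over probe sets. A lower floor admits more dim signals by construction; the other causes were not tested. Of 136 list medians under alternatives, 129 moved by less than the probe-set SD of 0.27; of the other 7, the other Wnt ligands had -0.41 with the floor at the 65th percentile, natural killer and T cell markers 0.30 with the offset, and the filamin and Siah genes 0.08 with the median over probe sets. Mesothelial markers, with 2 genes used as reported, had 0.69 with the floor at the 25th percentile and with no floor, 0.75 at the 65th, and -0.24 without _s_at and _x_at probe sets. No paired analysis was possible because each genotype has 1 array, and no array could be left out.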
